A study of Homo sapiens with 34 samples.

Results

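Cholesterol metabolism was followed through 28 genes, taken by their symbols from the 26336 genes of a read count table of prostate cell lines. Each of the 28 symbols had a row. Of the 28, 19 encode enzymes of the synthesis pathway. These are 5 genes of the mevalonate steps (ACAT2, HMGCS1, MVK, PMVK, MVD), 3 of the isoprenoid steps (IDI1, FDPS, GGPS1), 3 of the steps through squalene to lanosterol (FDFT1, SQLE, LSS) and 8 of the steps from lanosterol to cholesterol (CYP51A1, TM7SF2, MSMO1, NSDHL, HSD17B7, EBP, SC5D, DHCR7). Another 4 genes belong to the control of the transcription factor SREBP2 (SREBF2, which encodes it, SCAP, INSIG1 and INSIG2). The last 5 act in uptake, transport and storage (SCARB1, NPC1L1, NPC1, STARD4 and SOAT1).

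Cells make cholesterol from acetyl-CoA through mevalonate, isoprenoid pyrophosphates, squalene and lanosterol. SREBP2 is held in the endoplasmic reticulum with its escort SCAP. When membrane sterol falls, the pair leaves the INSIG proteins for the Golgi, where SREBP2 is cut and its released part enters the nucleus to raise transcription of the synthesis genes and of INSIG1. Cholesterol is taken up from lipoproteins by receptors such as SR-BI (SCARB1), leaves lysosomes through NPC1, is carried between membranes by proteins such as STARD4, and is stored as ester by SOAT1. Androgens are known to raise lipid synthesis genes in prostate cells, and cholesterol is the precursor of steroid hormones.

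The lines were RWPE, labelled non-tumorigenic prostate epithelium, LNCaP, from a lymph node metastasis, and VCaP and MDAPCa2a, both from bone metastases. Cells grew on plastic or on a coating of amorphous calcium phosphate (ACP), which serves as a model of bone mineral. On plastic the media were each line's control medium or a medium with charcoal-dextran-stripped fetal serum, which lacks most steroids and also loses other lipids. On ACP there was a further medium, stripped serum plus an androgen, whose labelled dose is 100 mM. The name differs between labels, DHT in titles and testosterone in treatment fields, and the text says androgen. The 34 libraries form 17 groups of 2, except RWPE on ACP with androgen, with 3, and VCaP on plastic in stripped serum, with 1 and no replicate. RWPE has no stripped groups, so its androgen medium was set against its control medium on ACP, and MDAPCa2a has no control group on ACP. Plastic control cultures are labelled continuous culture and all others day 4. Control media differed by line: serum-free keratinocyte medium for RWPE, and serum-containing RPMI, DMEM with F12 or BRFF-HPC1 for LNCaP, VCaP and MDAPCa2a. MDAPCa2a plastic, but not its ACP surface, carried a protein coating. Each line is a single established culture, and nothing in the labels says whether replicates came from separate cultures, so p-values measure the spread between these libraries, which may be technical.

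Libraries held 15.4 M to 44.8 M counts, with 34.9 M to 44.8 M in the 8 plastic control libraries and 15.4 M to 37.0 M in the other 26. Levels as CPM, counts scaled to a common library size, use TMM library sizes over all lines. The summed level of 4 basal markers was 3400 to 15900 CPM in RWPE and 0.787 to 44 CPM in the other lines, and KLK3, the gene of prostate-specific antigen, lay between 5.94 and 19.1 CPM in RWPE and reached 11700 CPM in MDAPCa2a. The 8 plastic control libraries, apart from being deeper and labelled continuous culture, all carried the liver transcript FGG, at 1.41 to 2.84 CPM. In each comparison with plastic control these differences and the group cannot be told apart. In bulk RNA, fewer cells of a kind and less RNA per cell cannot be told apart either.

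Promoter windows of 250 bases before to 50 after a gene's start were available for 24 of the 28 genes, as 32 windows of the RefSeq table for GRCh38.p14. ACAT2, FDFT1, SQLE and SCARB1 had none. Several kinds of letters linked to SREBP2 promoters were searched on both strands: a sterol regulatory element of 10 letters, its shorter form TCACNCCAC, which that element contains, the CCAAT box of NF-Y, the GC box GGGCGG of Sp1 and the E-box CACGTG. The CCAAT box was in 65.6% of the members' windows and 34.6% of all 35116 windows, GGGCGG in 87.5% against 45%, and CACGTG in 15.6% against 7.26%. The sterol regulatory element was in 1 member window, or 3.12%, that of SREBF2, and in 0.0456% of all windows. The shorter form was in the same single member window, against 1.13% of all windows. The stretches shown hold those letters, for SREBF2, which encodes the factor, and for 4 other members that rose with androgen in LNCaP. SREBF2 lies at chr22:41832957-41833017 (plus strand), STARD4 at chr5:111512647-111512710 (minus), HMGCS1 at chr5:43313529-43313637 (minus), LSS at chr21:46228900-46228944 (minus) and INSIG1 at chr7:155297688-155297732 (plus), all upstream of the gene start. Capitals mark the searched letters: the first capitals of SREBF2 are the sterol regulatory element, CCAAT also reads as ATTGG on the other strand, and GGGCGG as CCGCCC. The sterol regulatory element of SREBF2 spans -134 to -125 from the start and its CCAAT box -106 to -102. STARD4 holds 2 CCAAT boxes, at -161 to -157 and -130 to -126. A match describes these letters in this window and is no measured binding site, and the files hold no binding data.
SREBF2: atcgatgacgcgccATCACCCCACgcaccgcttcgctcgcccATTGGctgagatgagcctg
STARD4: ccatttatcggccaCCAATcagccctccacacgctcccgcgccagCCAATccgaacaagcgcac
HMGCS1: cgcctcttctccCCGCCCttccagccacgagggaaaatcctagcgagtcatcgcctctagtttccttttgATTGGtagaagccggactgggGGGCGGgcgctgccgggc
LSS: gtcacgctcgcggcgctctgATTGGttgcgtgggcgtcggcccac
INSIG1: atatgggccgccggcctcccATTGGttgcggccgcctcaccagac

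The 19 enzymes together made up 0.123% to 0.531% of all counts in a library. Their summed level was lowest in RWPE, at 1259 to 1827 CPM over its 7 libraries. MDAPCa2a lay at 1774 to 2745 CPM, LNCaP at 1786 to 3956 CPM and VCaP at 2779 to 5517 CPM. VCaP overlapped neither RWPE nor MDAPCa2a, while MDAPCa2a overlapped RWPE and LNCaP overlapped each other line. Within LNCaP the sum was 2120 and 2098 CPM on plastic in control medium, 2051 and 1786 on plastic in stripped serum, 2673 and 2400 on ACP in control medium, 2710 and 2400 on ACP in stripped serum and 3956 and 3880 on ACP with androgen, so both androgen libraries stood above all 8 others. Within VCaP it was 3888 and 4371, 2779, 5211 and 3910, 3949 and 3000 and 4538 and 5517 CPM in the same order. The androgen libraries lay above both stripped libraries on ACP and overlapped the control libraries on ACP. MDAPCa2a was at 1820 and 1836 on plastic in control medium, 2515 and 2745 on plastic in stripped serum, 2092 and 1774 on ACP in stripped serum and 1853 and 1781 with androgen. There the highest pair was plastic in stripped serum, and the androgen and stripped pairs on ACP overlapped.

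**Figure D1:**
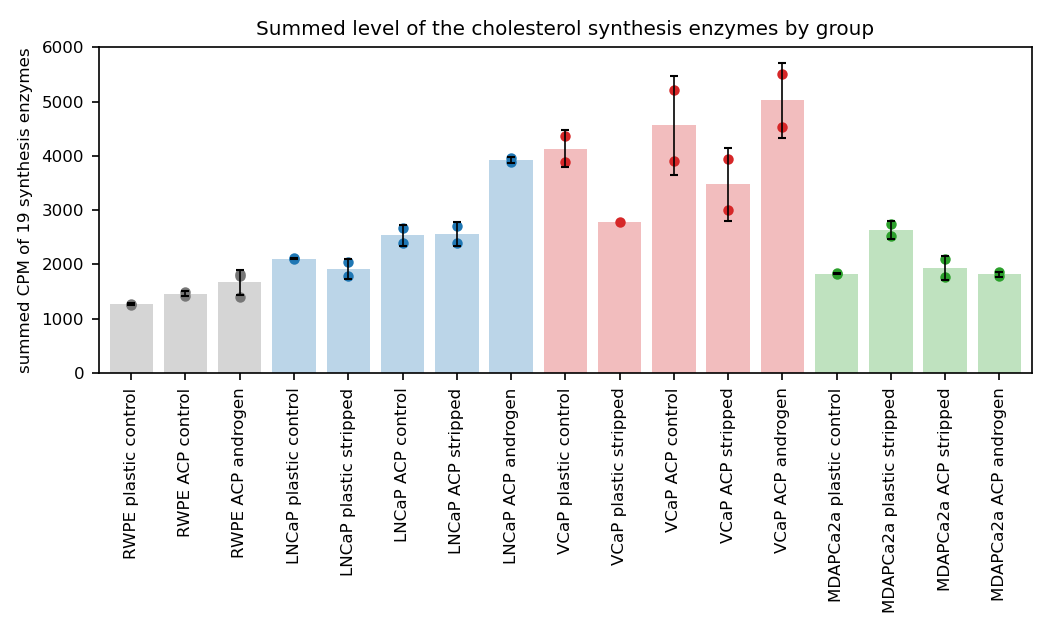
Summed CPM of the 19 synthesis enzymes (y axis) in each of the 17 groups (x axis), with points for libraries, bars for group means and whiskers for the SD where a group has more than 1 library. LNCaP on ACP with androgen, at 3880 and 3956 CPM, stands above every other LNCaP library, and the RWPE group means are the lowest.

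Per kilobase of exon (lengths of GENCODE 29, not the build of the counts), the highest median levels over the 34 libraries were those of TM7SF2, one of the sterol reductases, at 87.8 CPM per kb, PMVK at 70.2 and FDFT1, squalene synthase, at 54.3. The lowest was NPC1L1, the intestinal cholesterol importer, at 0.0219 CPM per kb. NPC1L1 had 10 reads or fewer in 26 of 34 libraries and 0 reads in 6, all of MDAPCa2a, where a count of 0 allows up to 0.0783 to 0.194 CPM for counting error only. Its highest value was 3.65 CPM, in LNCaP on ACP in control medium. The remaining 27 members had at least 88 reads in every library. Their highest library exceeded their lowest by 2.51 times (GGPS1) to 177 times (TM7SF2).

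Single members differed between lines, with TM7SF2 the most variable apart from NPC1L1, which had few reads. In control medium on plastic, 17 of 28 members differed between LNCaP and RWPE by edgeR (14 higher, 3 lower, against 57.4% of all genes tested). VCaP against RWPE gave 22 (19 higher, 3 lower, against 62.4% of all genes, with 30.3% of all genes lower). MDAPCa2a against RWPE gave 16 (12 higher, 4 lower, against 56.7%). VCaP against LNCaP gave 17 (14 higher, 3 lower, against 52.6%), and MDAPCa2a against LNCaP 13 (5 higher, 8 lower, against 40.2%). Higher calls alone were 50%, 67.9% and 42.9% of the members for LNCaP, VCaP and MDAPCa2a against RWPE, where 29.5%, 32.1% and 28.3% of all genes were higher. For VCaP against LNCaP they were 50% against 27%, and for MDAPCa2a against LNCaP 17.9% against 19.3%. In either direction the members' shares were 60.7%, 78.6% and 57.1% for LNCaP, VCaP and MDAPCa2a against RWPE. They were 60.7% for VCaP against LNCaP and 46.4% for MDAPCa2a against LNCaP. The shares for LNCaP and MDAPCa2a against RWPE lay near those of all genes. NPC1L1 is counted among the calls of LNCaP against RWPE and of MDAPCa2a against LNCaP. It had 24 and 20 reads in LNCaP, 3 and 2 in RWPE and 2 and 0 in MDAPCa2a. Its calls rest on these few reads and are no support for a line difference. Line and medium cannot be told apart in any of these comparisons.

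TM7SF2 was at 5.20 and 8.32 CPM in RWPE on plastic, 356 and 308 in LNCaP, 919 and 701 in VCaP and 128 and 145 in MDAPCa2a. RWPE stood apart from every other line, with log2 5.62 ± 0.30 (SE), adjusted p = 1.12e-13 for LNCaP against RWPE. STARD4, a cytosolic sterol carrier, ran the other way, with 80.8 and 74.2 CPM in RWPE, 20.3 and 19.6 in LNCaP, 14.4 and 22.1 in VCaP and 6.58 and 6.59 in MDAPCa2a (MDAPCa2a against RWPE log2 -3.56 ± 0.37 (SE), adjusted p = 9.41e-09). LNCaP and VCaP did not differ in STARD4 beyond their spread (log2 -0.13 ± 0.33, adjusted p = 0.773). MVD, the decarboxylase that ends the mevalonate steps, was lowest in VCaP at 20.2 and 17.3 CPM, against 49.9 and 51.2 in RWPE, 41.5 and 39.4 in LNCaP and 63.6 and 72.1 in MDAPCa2a (VCaP against LNCaP log2 -1.11 ± 0.19 (SE), adjusted p = 3.19e-05). VCaP was also low in HSD17B7, a sterol ketoreductase, at 11.1 and 9.52 CPM against 25.5 and 31.7 in LNCaP.

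HMGCS1, SQLE, LSS and INSIG1 were high in VCaP. HMGCS1, the synthase that makes HMG-CoA, was at 371 and 519 CPM in VCaP and 89.6 and 91.7 in LNCaP on plastic in control medium (log2 2.30 ± 0.27 (SE), adjusted p = 1.57e-07), with 82.0 and 71.9 in MDAPCa2a and 42.5 and 43.3 in RWPE. SQLE, squalene epoxidase, was at 292 and 409 CPM in VCaP and 67.1 and 64.1 in LNCaP (log2 2.42 ± 0.22 (SE), adjusted p = 1.6e-09). LSS, lanosterol synthase, was at 487 and 519 CPM in VCaP, 203 and 216 in MDAPCa2a, 157 and 145 in RWPE and 140 and 128 in LNCaP. LNCaP and RWPE, the lowest neighbours in LSS, did not differ beyond their spread (adjusted p = 0.426). INSIG1 was at 316 and 289.8 CPM in VCaP, 111 and 121 in LNCaP, 53.7 and 49.5 in MDAPCa2a and 31.1 and 30.2 in RWPE, with each step of that order past the threshold (MDAPCa2a against RWPE log2 0.75 ± 0.19 (SE), adjusted p = 0.00188).

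The genes that handle finished cholesterol split the cancer lines. NPC1, the lysosomal exporter, was highest in LNCaP at 101 and 100.3 CPM, followed by RWPE at 68.9 and 76.2, MDAPCa2a at 38.7 and 38.1 and VCaP at 25.3 and 27.6 (VCaP against LNCaP log2 -1.92 ± 0.21 (SE), adjusted p = 4.34e-08). SOAT1, which esterifies cholesterol, had the order MDAPCa2a (206 and 193 CPM), VCaP (127 and 127), RWPE (47.8 and 43.7) and LNCaP (37.4 and 36.4), with log2 2.43 ± 0.17 (SE), adjusted p = 2.72e-11 for MDAPCa2a against LNCaP. NPC1 did not pass between LNCaP and RWPE (adjusted p = 0.0518), nor did SOAT1 (adjusted p = 0.109). SCARB1 was highest in VCaP, at 268 and 312 CPM, and lowest in RWPE, at 78.0 and 84.8, while LNCaP and MDAPCa2a did not pass against each other (adjusted p = 0.551). SREBF2 was at 698 and 656 CPM in MDAPCa2a, 557 and 575 in LNCaP, 465 and 581 in VCaP and 270.2 and 275 in RWPE. RWPE was the lowest line in SREBF2, and the cancer lines' order did not pass the test between VCaP and LNCaP (adjusted p = 0.682).

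On ACP with androgen, LNCaP against RWPE gave 20 called members (18 higher, 2 lower, against 66.9% of all genes, 32.2% higher and 34.8% lower). VCaP against RWPE gave 23 (20 higher, 3 lower, against 67.4%, 32.8% higher and 34.6% lower). MDAPCa2a against RWPE gave 22 (13 higher, 9 lower, against 64%, 29.9% higher and 34.2% lower). VCaP against LNCaP gave 16 (10 higher, 6 lower, against 56%, 28.5% higher and 27.5% lower). These 16 are 57.1% of the members, near the share of all genes. MDAPCa2a against LNCaP gave 20, against 45.3% of all genes in either direction. Of these 18 were lower, or 64.3% of the members against 24% of all genes. The 2 members higher in MDAPCa2a were SOAT1 and SCAP. NPC1L1 is among the calls of LNCaP against RWPE and of VCaP and MDAPCa2a against LNCaP. Its reads in the androgen libraries were 14 and 66 in LNCaP, 7 and 4 in VCaP, 0 and 0 in MDAPCa2a and 1, 1 and 4 in RWPE. These NPC1L1 calls rest on few reads and are no support for a line difference. In these androgen groups HMGCS1 was at 357 and 229 CPM in LNCaP, 401 and 621 in VCaP, 80.0 and 75.6 in MDAPCa2a and 36.2, 42.2 and 36.7 in RWPE, and STARD4 at 71.7 and 59.6, 67.1 and 56.4, 11.8 and 11.01 and 166, 168 and 103 CPM in the same order. The RWPE androgen libraries remained the highest in STARD4, as on plastic, and MDAPCa2a the lowest. Line and culture medium change together on ACP with androgen too, and cannot be told apart. Without the second VCaP androgen library, 10 members passed for VCaP against LNCaP.

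**Figure D2:**
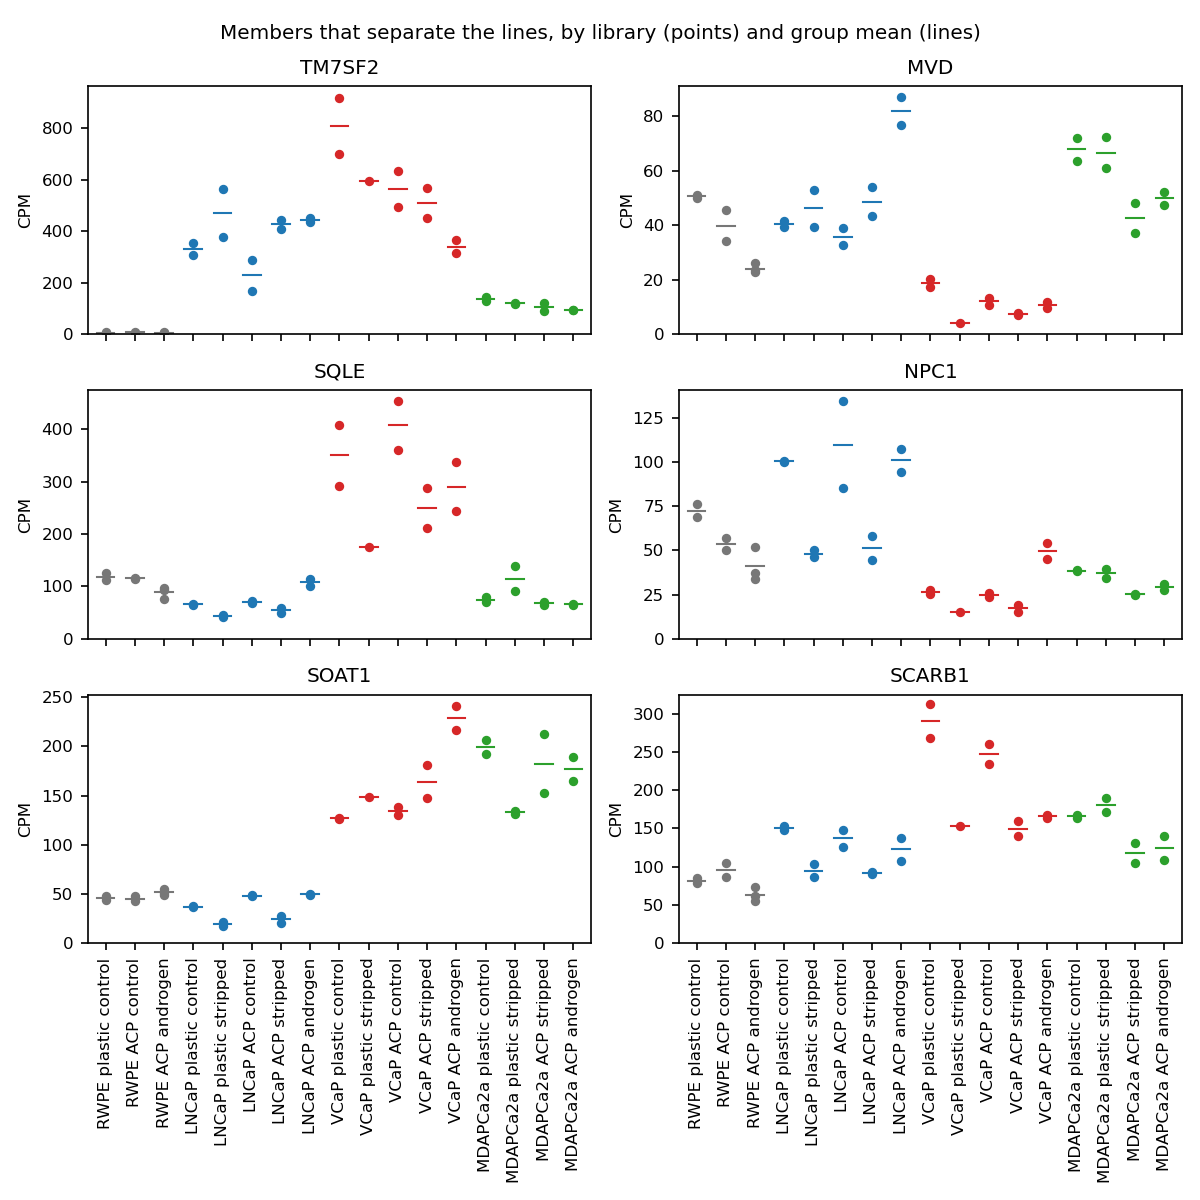
CPM (y axes) of TM7SF2, MVD, SQLE, NPC1, SOAT1 and SCARB1 in each group (x axis), with points for libraries and short lines for group means. TM7SF2 is near the axis in RWPE, MVD is lowest in VCaP, and NPC1 and SOAT1 order the cancer lines differently.

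Added androgen raised members of nearly every stage of the pathway in LNCaP. Against stripped serum on ACP, 14 of 28 members rose and 1 fell at an edgeR adjusted p below 0.05, against 3.77% of all genes higher and 3.96% lower (7.73% in either direction). The members' median log2 change was 0.69, against -0.01 over 14656 genes tested, and 26 of 28 changes were positive, as were 48.7% of all. By stage, the rises were 2 of 5 genes of the mevalonate steps, 0 of 3 of the isoprenoid steps, 3 of 3 from squalene to lanosterol, 3 of 8 from lanosterol to cholesterol, 3 of 4 control genes and 3 of 5 of transport and storage.

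Among the members that passed, HMGCS1 had the largest rise, from 109.9 and 114 CPM in the stripped libraries to 357 and 229 with androgen (log2 1.38 ± 0.23 (SE), adjusted p = 0.00535). Both androgen libraries lay above all 8 other LNCaP libraries, although they differed from each other. LSS went from 129 and 117 to 258 and 272 CPM (log2 1.09 ± 0.14 (SE), adjusted p = 0.00112), with close replicates in both groups. SQLE went from 49.7 and 59.1 to 101 and 114 CPM (log2 0.97 ± 0.15 (SE), adjusted p = 0.0037). FDFT1, which commits isoprenoids to sterol, went from 419.5 and 335 to 653 and 705 CPM (log2 0.83 ± 0.15 (SE), adjusted p = 0.00745). The squalene stage was the one in which each member passed. SC5D, a desaturase of the last steps, went from 125 and 118 to 283 and 220.1 CPM (log2 1.04 ± 0.20 (SE), adjusted p = 0.0124). MVD (log2 0.74), CYP51A1, lanosterol demethylase (0.71), and DHCR7, the last reductase (0.59), rose less. No library of one group overlapped the other for any of these 8 enzymes, as for 56% of all genes tested.

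The control genes moved in opposite directions. INSIG1, itself a target of SREBP2, rose from 147 and 125 to 235 and 336 CPM (log2 1.05 ± 0.18 (SE), adjusted p = 0.00677), while INSIG2, its paralogue, fell from 94.8 and 96.5 to 39.9 and 59.1 CPM (log2 -0.97 ± 0.23 (SE), adjusted p = 0.0264). SREBF2 rose from 268 and 231 to 437 and 430.1 CPM (log2 0.78 ± 0.15 (SE), adjusted p = 0.00985) and SCAP from 82.6 and 82.4 to 123 and 128 CPM (log2 0.59, adjusted p = 0.0327). Among genes of transport and storage, SOAT1 rose from 20.8 and 27.5 to 50.2 and 48.6 CPM (log2 1.02 ± 0.18 (SE), adjusted p = 0.00772), NPC1 from 44.3 and 58.3 to 108 and 94.8 CPM (log2 0.96 ± 0.21 (SE), adjusted p = 0.0193) and STARD4 from 38.0 and 29.5 to 71.7 and 59.6 CPM (log2 0.95 ± 0.24 (SE), adjusted p = 0.0348). SCARB1, the lipoprotein receptor, at 92.2 and 89.8 and then 108 and 137 CPM, did not pass (adjusted p = 0.115).

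Of the other 13 members, none of which passed, IDI1, the isomerase of isoprenoid building blocks, had log2 0.82 ± 0.24 (adjusted p = 0.0626) and MVK, mevalonate kinase, 0.66 ± 0.21 (adjusted p = 0.0757). NPC1L1, at 10 and 8 reads in stripped serum and 14 and 66 with androgen, had a larger fitted change than any called member, log2 2.10 ± 0.87 (adjusted p = 0.169). EBP (0.08), TM7SF2 (0.05) and GGPS1 (0.12) were near 0, with overlapping libraries. The number of calls depended on single libraries: without stripped replicate 1, stripped replicate 2 or androgen replicate 1, 3, 4 and 6 members passed. LSS passed in each of the 10 alternatives, among them every removal of 1 library. As a check of the labels, KLK3 rose by log2 1.01 and TMPRSS2 by 2.27 in these libraries. The summed level of 5 luminal markers, none at 0, was 3250 to 3390 CPM in stripped serum and 5930 to 6550 CPM with androgen, and all of 10 proliferation genes were lower, 7 of them past the threshold. The part of these differences in the result was not tested.

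In VCaP, androgen raised 10 of 28 members and lowered none by edgeR, against 8.67% of all genes higher and 8.8% lower. The median log2 change of the members was 0.56, against -0.03 over 15614 genes tested, and 25 of 28 changes were positive, as were 48.3% of all. The largest was STARD4, from 10.8 and 19.5 CPM in stripped serum to 67.1 and 56.4 with androgen (log2 2.03 ± 0.33 (SE), adjusted p = 0.00489). INSIG1 followed, from 221 and 165 to 678 and 718 CPM (log2 1.86 ± 0.26 (SE), adjusted p = 0.00279), the highest INSIG1 values in the data. EBP, the sterol isomerase, went from 36.7 and 30.2 to 87.5 and 126 CPM (log2 1.68 ± 0.25 (SE), adjusted p = 0.00321).

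The isoprenoid genes, none of which passed in LNCaP, included 2 of the larger VCaP rises. IDI1 went from 201 and 191 to 549 and 601 CPM (log2 1.55 ± 0.27 (SE), adjusted p = 0.00615), and FDPS, farnesyl pyrophosphate synthase, from 124 and 81.7 to 211 and 349 CPM (log2 1.45 ± 0.30 (SE), adjusted p = 0.011). NPC1 went from 15.2 and 19.2 to 54.4 and 45.2 CPM (log2 1.54 ± 0.22 (SE), adjusted p = 0.00287). FDFT1 (log2 0.96), HSD17B7 (0.96), DHCR7 (0.84) and NSDHL, a sterol dehydrogenase (0.74), also rose. HMGCS1, at 389 and 238 CPM and then 401 and 621, did not pass (log2 0.71 ± 0.32, adjusted p = 0.148), and its libraries varied within both groups. LSS, the LNCaP call that passed in each alternative, was at 378 and 281 and 352 and 322 CPM (log2 0.03 ± 0.21), with overlapping libraries. TM7SF2, at 569 and 453 CPM and then 367 and 314, was lower without overlap but did not pass (log2 -0.59 ± 0.24, adjusted p = 0.112). SREBF2 was at 293 and 285 and 318 and 269 CPM (log2 0.02 ± 0.20).

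IDI1, EBP, INSIG1, STARD4 and NPC1 passed in each of the 10 alternatives. Without androgen replicate 2 or without stripped replicate 2, 5 members passed. The VCaP libraries also differed in markers: 11 liver markers summed to 325 to 385 CPM in stripped serum and 50.2 to 113 CPM with androgen, mostly from ALB and TTR, with FGA and FGG at 0 in all 4 libraries. The list did not fall as a whole. SERPINA1 was at 3.85 and 5.82 CPM in stripped serum and 14.1 and 11 with androgen, and APOA1 at 0.146 and 0.082 and 0.389 and 0.438. The 5 fibroblast markers summed to 41.4 to 162 CPM and 7.57 to 8.32 CPM, mostly from LUM, with COL1A2 at 0 in stripped serum. All of 10 proliferation genes were higher, 8 past the threshold. KLK3 rose by log2 4.77 and TMPRSS2 by 2.91. The part of the marker and proliferation differences in the members' rise was not tested.

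LNCaP and VCaP shared 5 called rises: DHCR7, FDFT1, INSIG1, NPC1 and STARD4. These are 35.7% of the members' LNCaP rises and 50% of those in VCaP. Over all genes, 156 rose in both, or 28.3% of the LNCaP rises and 11.5% of those in VCaP. The difference of the androgen effects itself was tested in the fit of all lines. It passed for 3 of 28 members between VCaP and LNCaP, against 10.9% of all genes: EBP (log2 1.58 ± 0.32, adjusted p = 0.00245) and FDPS (1.11 ± 0.31, adjusted p = 0.0226) responded more in VCaP and LSS (-1.07 ± 0.25, adjusted p = 0.00679) less. That share of members is near the share of all genes. INSIG2, which fell in LNCaP and was at 41.1 and 35.9 and 32.8 and 53.0 CPM in VCaP, did not pass this test (log2 1.11 ± 0.41, adjusted p = 0.0827). Without VCaP androgen replicate 1, 6 members passed.

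In MDAPCa2a no member passed the test with androgen. Of 27 members tested, 0 passed by edgeR and 0 had an unadjusted p below 0.05, and DESeq2 also called 0. The background was 0% of 13626 genes, and 1.73% at the unadjusted p. The log2 changes ran from -0.47 (SC5D) to 0.19 (MVD), with standard errors of 0.15 to 0.38. INSIG1 was at 57.0 and 52.7 CPM in stripped serum and 51.6 and 53.1 with androgen, HMGCS1 at 83.3 and 79.4 and 80.0 and 75.6, and LSS at 178 and 224 and 188 and 244. The libraries of the groups did not overlap for 3 of the 27, against 22.7% of all genes. KLK3 (log2 -0.47) and TMPRSS2 (-0.35) did not pass there either (adjusted p = 0.968 for each), and KLK3 was already at 11700 and 7010 CPM in stripped serum. The difference from the LNCaP effect passed for 3 of 28 members, against 0.768% of all genes lower: INSIG1 (log2 -1.13 ± 0.27, adjusted p = 0.0375), SOAT1 (-1.08 ± 0.23, adjusted p = 0.0166) and LSS (-1.0 ± 0.25, adjusted p = 0.0462). Without LNCaP stripped replicate 1 or MDAPCa2a androgen replicate 1, 0 members passed, and without LNCaP androgen replicate 1 or stripped replicate 2, 1 did.

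**Figure D3:**
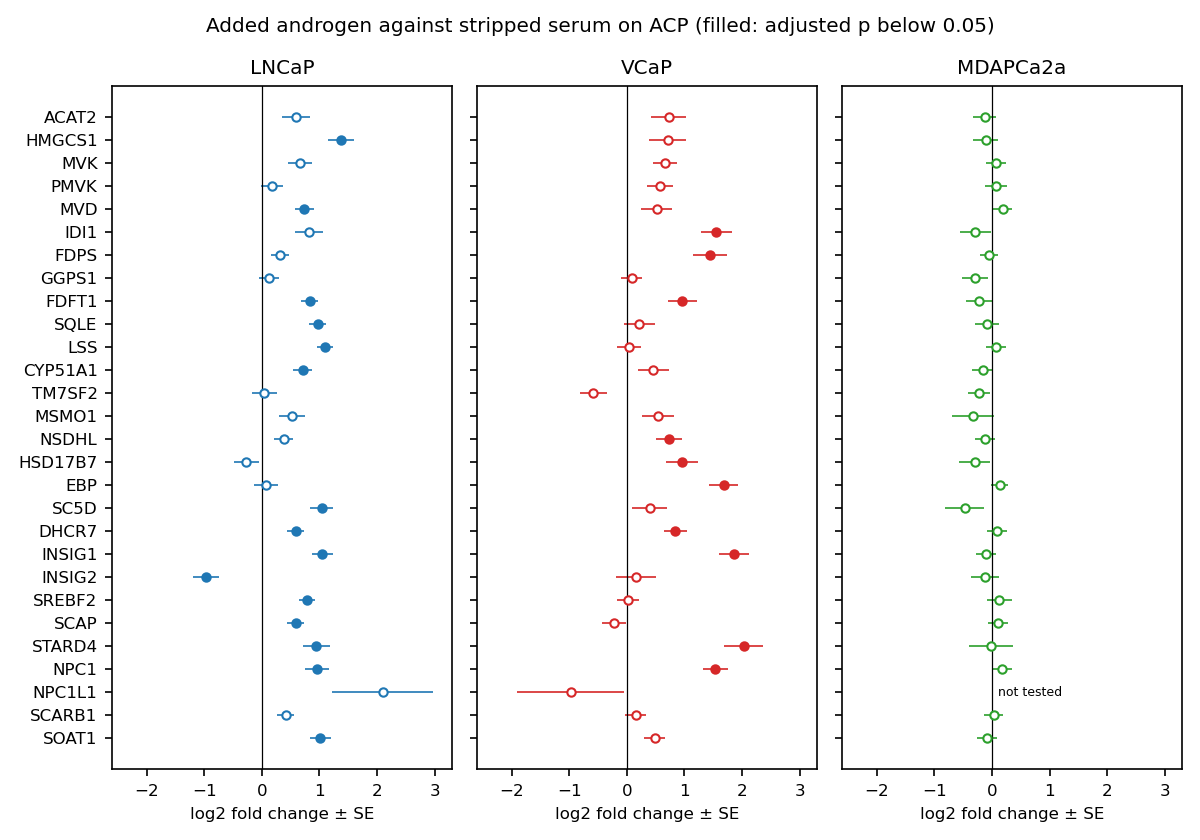
Log2 fold change with androgen against stripped serum on ACP (x axis, with SE as whiskers) of each of the 28 members (y axis) in LNCaP, VCaP and MDAPCa2a, filled where the adjusted p is below 0.05. LNCaP has 15 filled points and VCaP 10, with STARD4 at 2.03 the largest of these in VCaP. MDAPCa2a has 0, its points lie between -0.47 and 0.19, and NPC1L1 was not tested there.

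RWPE members moved in both directions with its androgen medium, which here is set against control medium on ACP, so serum and androgen changed together. Of 27 members tested, 5 rose and 3 fell, against 11% of all genes higher and 8.05% lower. In either direction that is 29.6% of the members against 19.1% of all genes. HSD17B7 went from 27.8 and 26.6 CPM to 64.7, 60.1 and 30.6 (log2 0.95 ± 0.28 (SE), adjusted p = 0.0401), IDI1 from 73.0 and 93.3 to 186, 161 and 111 (log2 0.90 ± 0.24 (SE), adjusted p = 0.0301) and SC5D from 35.0 and 42.0 to 85.6, 68.3 and 51.7 (log2 0.85 ± 0.22 (SE), adjusted p = 0.0278). ACAT2, which makes acetoacetyl-CoA, and GGPS1, which makes geranylgeranyl pyrophosphate, also rose. LSS fell from 144 and 118 to 61.4, 72.3 and 74.0 CPM (log2 -0.90 ± 0.17 (SE), adjusted p = 0.017), MVD from 45.6 and 34.2 to 22.8, 23.6 and 26.0 (log2 -0.71 ± 0.16 (SE), adjusted p = 0.0209) and SCARB1 from 105 and 86.7 to 54.9, 61.9 and 72.6 (log2 -0.58 ± 0.17 (SE), adjusted p = 0.039). Enzymes of neighbouring steps moved in opposite directions in RWPE, while INSIG1, at 35.0 and 33.5 and then 27.3, 27.0 and 26.4 CPM, did not pass (adjusted p = 0.121).

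RWPE androgen replicate 3 lay nearest the control libraries in HSD17B7, IDI1 and SC5D, with HSD17B7 at 30.6 CPM against 64.7 and 60.1 in the others. Without it 19 members passed, and without either control library 0 did. Without androgen replicate 1 or 2, 2 and 3 passed, and in a fit without the plastic control libraries 2 passed. The shares of all genes called in these fits are not given here. The counts therefore show only how far the member calls depend on the libraries. The 4 basal markers, none at 0, summed to 3400 to 11100 CPM over the androgen libraries and 12700 to 15900 CPM in control medium, and 10 proliferation genes summed to 2720 to 2930 and 2520 to 2590 CPM. The part of these differences was not tested. KLK3, at 8.51 and 5.94 and then 16.8, 8.46 and 7.17 CPM, gives no check of the androgen label in this line.

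In LNCaP, stripped serum lowered 3 genes of transport and storage and changed 1 of 19 enzymes. On ACP against control medium, 5 of 28 members passed (2 higher, 3 lower, against 5.37% of all genes, 3.28% higher and 2.09% lower). NPC1 fell from 85.3 and 135 CPM in control medium to 44.3 and 58.3 in stripped serum (log2 -1.11 ± 0.21 (SE), adjusted p = 0.0107), SOAT1 from 47.8 and 48.7 to 20.8 and 27.5 (log2 -1.01 ± 0.18 (SE), adjusted p = 0.00855) and SCARB1 from 126 and 148 to 92.2 and 89.8 (log2 -0.61 ± 0.15 (SE), adjusted p = 0.0381). INSIG2 rose from 47.4 and 48.0 to 94.8 and 96.5 CPM (log2 0.99 ± 0.23 (SE), adjusted p = 0.0284) and TM7SF2 from 169.8 and 290.3 to 446 and 408 (log2 0.88 ± 0.22 (SE), adjusted p = 0.0455). TM7SF2 was the only one of 19 enzymes to pass, and HMGCS1 (144 and 123 against 109.9 and 114 CPM) did not. Without stripped replicate 1, 0 members passed, and without stripped replicate 2 or control replicate 1, 2 and 3 did. In a fit without the plastic control libraries 2 passed and in the fit of all lines 3. The 5 luminal markers summed to 3780 to 4900 CPM in control and 3250 to 3390 CPM in stripped medium, and all of 10 proliferation genes were lower, 0 past the threshold. Their part in the result was not tested.

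Read across the 3 media on ACP, LNCaP showed different courses. NPC1, SOAT1 and INSIG2 had androgen values at or near their control values: NPC1 was at 85.3 and 135 CPM in control medium and 108 and 94.8 with androgen, SOAT1 at 47.8 and 48.7 and 50.2 and 48.6, and INSIG2 at 47.4 and 48.0 and 39.9 and 59.1. SCARB1 was at 126 and 148 CPM in control medium, 92.2 and 89.8 in stripped serum and 108 and 137 with androgen. Its lower androgen library lay below both control libraries. HMGCS1, LSS, SQLE and SC5D had androgen values above control, with LSS at 99.8 and 99.5 CPM in control medium and 258 and 272 with androgen, and HMGCS1 at 144 and 123 and 357 and 229. The stripped libraries are shared by both comparisons, and androgen against control medium was not tested in LNCaP.

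In VCaP on ACP, EBP alone fell with stripped serum, from 101 and 78.2 to 36.7 and 30.2 CPM (log2 -1.41 ± 0.25 (SE), adjusted p = 0.0396), against 0.82% of all genes called, 0.134% higher and 0.685% lower. The members' median was -0.43 against 0.08 over all genes tested, 23 of 28 changes were negative, against 42.7% of all, and 15 had an unadjusted p below 0.05, against 16.6% of all genes. HMGCS1 was at 749.9 and 521 CPM in control medium and 389 and 238 in stripped serum, MVK at 71.5 and 60.2 and 42.9 and 37.3, and FDPS at 233 and 175 and 124 and 81.7. These groups did not overlap, as for 49.6% of all genes, but did not pass (adjusted p = 0.163, 0.14 and 0.139). In the same libraries 10 proliferation genes summed to 2740 to 2760 CPM in control medium and 564 to 1180 CPM in stripped serum, all lower and 2 past the threshold. The 11 liver markers summed to 161 to 269 and 325 to 385 CPM, with 4 and 3 of them at 0. The part of these differences in the result was not tested. The number of calls was 5 with DESeq2, 5 without the count filter and 8 in the fit of all lines, and 0 without any 1 of the 4 libraries. The single VCaP library on plastic in stripped serum was lowest of the 9 VCaP libraries in INSIG1 (93.7 CPM), HMGCS1 (194), EBP (21.0) and MVD (4.23), and has no replicate.

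On plastic, stripped serum was set against the plastic control libraries, where the differences named above and the group cannot be told apart. In LNCaP 1 member was higher and 7 were lower, against 9.45% of all genes, 4.61% higher and 4.84% lower. SREBF2 fell from 557 and 575 to 247 and 209.7 CPM (log2 -1.26 ± 0.15 (SE), adjusted p = 0.000574), and NPC1 (log2 -1.01), SOAT1 (-0.88) and SCARB1 (-0.62) fell and INSIG2 (1.32) rose, as listed for ACP. INSIG1, DHCR7 and SQLE fell as well. In MDAPCa2a 3 of 27 members rose and none fell, against 1.58% of all genes, 0.881% higher and 0.697% lower. They were ACAT2, from 31.8 and 35.7 to 73.2 and 74.6 CPM (log2 1.17 ± 0.20 (SE), adjusted p = 0.032), FDPS, from 83.3 and 94.6 to 169 and 145, and EBP, from 59.9 and 68.8 to 119.5 and 106. INSIG1 there was at 53.7 and 49.5 CPM in control medium and 73.4 and 93.6 in stripped serum (adjusted p = 0.0739). Leaving out plastic control replicate 1 or 2 or stripped replicate 1 left 1, 2 and 3 calls in LNCaP, and leaving out any 1 of the 4 libraries left 0 in MDAPCa2a.

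The ACP surface could be compared with plastic apart from the plastic control libraries only in stripped serum. In LNCaP, 7 of 28 members were higher on ACP and none lower, against 6.12% of all genes, 4.32% higher and 1.8% lower, and the members' median was 0.40 against 0.01. MSMO1, a sterol methyl oxidase, was at 38.9 and 61.7 CPM on plastic and 148.6 and 127 on ACP (log2 1.48 ± 0.23 (SE), adjusted p = 0.0067). STARD4 was at 9.80 and 16.4 and 38.0 and 29.5 CPM (log2 1.40 ± 0.25 (SE), adjusted p = 0.0108), IDI1 at 37.9 and 62.5 and 126 and 121 (log2 1.32 ± 0.25 (SE), adjusted p = 0.0138), INSIG1 at 60.2 and 69.4 and 147 and 125 (log2 1.10 ± 0.18 (SE), adjusted p = 0.0082) and FDFT1 at 224 and 199 and 419.5 and 335 (log2 0.87 ± 0.15 (SE), adjusted p = 0.00856). No libraries overlapped for these genes, as for 54.8% of all genes. SC5D and GGPS1 also rose. SREBF2 (247 and 209.7 against 268 and 231 CPM) and NPC1 (50.2 and 46.2 against 44.3 and 58.3) overlapped. KLK3 was at 135 and 124 CPM on plastic and 1560 and 1780 on ACP in the same libraries, and the 5 luminal markers, of which it is 1, summed to 1290 to 1590 and 3250 to 3390 CPM. Their part in the result was not tested. Without ACP stripped replicate 1 or plastic stripped replicate 1, 0 members passed, without ACP stripped replicate 2, 4 did, and the fit of all lines called 4.

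In MDAPCa2a the members had mostly negative changes in stripped serum, with 0 of 27 called against 0.00734% of all genes. The median was -0.41 against 0.03, and 14 members had an unadjusted p below 0.05, against 15.2% of all genes. All of 10 proliferation genes were also lower on ACP, 0 past the threshold, with sums of 364 to 631 CPM on plastic and 173 to 437 CPM on ACP, and their part was not tested. EBP was at 119.5 and 106 CPM on plastic and 57.4 and 61.3 on ACP (log2 -0.84 ± 0.15, adjusted p = 0.136), MVK at 65.0 and 55.6 and 29.1 and 35.0, and DHCR7 at 265 and 229 and 119 and 156. SOAT1 was at 135 and 132 and 153 and 213 CPM, without overlap but not past the threshold. DESeq2 called 4 members and the test without the count filter 5. Without ACP stripped replicate 2, 3 passed. Plastic but not ACP carried a protein coating for this line, so surface and coating cannot be told apart.

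In control medium the surface comparison rests on the plastic control libraries, and their differences and the surface cannot be told apart. RWPE had 0 of 27 members called (5 at an unadjusted p below 0.05, against 22.9% of all genes, and 2 by DESeq2), against 4.16% of all genes, 2.83% higher and 1.33% lower. VCaP had 0 of 28 (4 unadjusted, against 7.19%, and 0 by DESeq2), against 0.0448%, 0.0256% higher and 0.0192% lower. In LNCaP 10 members were higher on ACP and 2 lower, against 12.6%, 6.74% higher and 5.85% lower. EBP was at 48.7 and 48.3 CPM on plastic and 128 and 77.8 on ACP (log2 1.19 ± 0.21 (SE), adjusted p = 0.0111), MSMO1 at 57.0 and 58.7 and 141 and 104 (log2 1.19 ± 0.23 (SE), adjusted p = 0.0132) and ACAT2 at 52.7 and 54.1 and 145 and 78.0 (log2 1.17 ± 0.25 (SE), adjusted p = 0.0167). SREBF2 (557 and 575 and 268 and 343 CPM, log2 -0.79 ± 0.15 (SE), adjusted p = 0.0119) and SCAP were lower. Without either plastic control library 0 members passed, without ACP control replicate 1, 2 did, and the fit of all lines called 6.

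**Figure D4:**
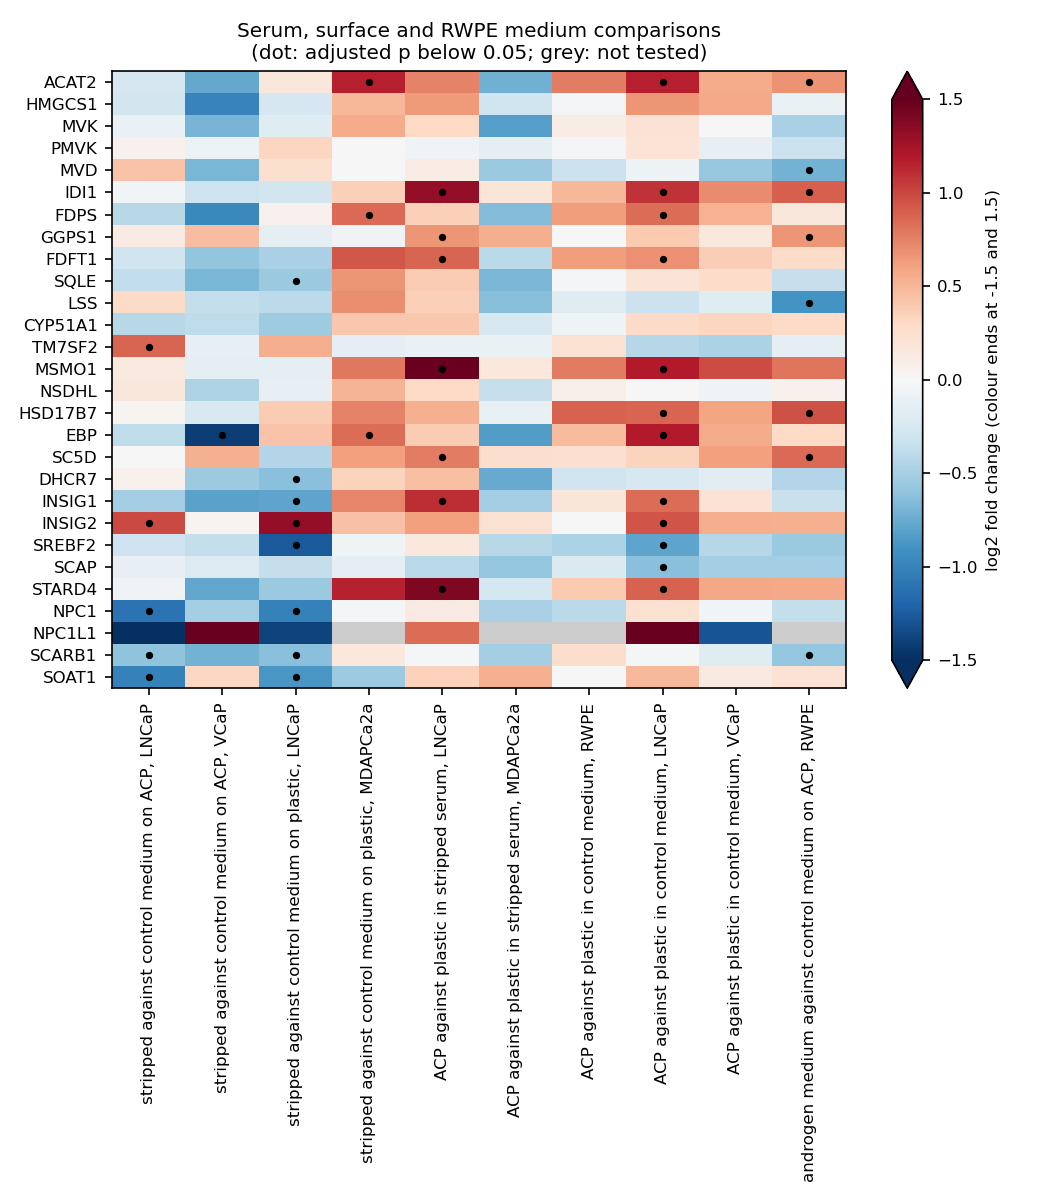
Log2 fold changes (colour) of the 28 members (rows) in the serum, surface and RWPE medium comparisons (columns), with a dot where the adjusted p is below 0.05 and grey where a gene was not tested. LNCaP in stripped serum on ACP has 7 dots for higher levels than on plastic, and MDAPCa2a in the same comparison has 0.

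**Figure D5:**
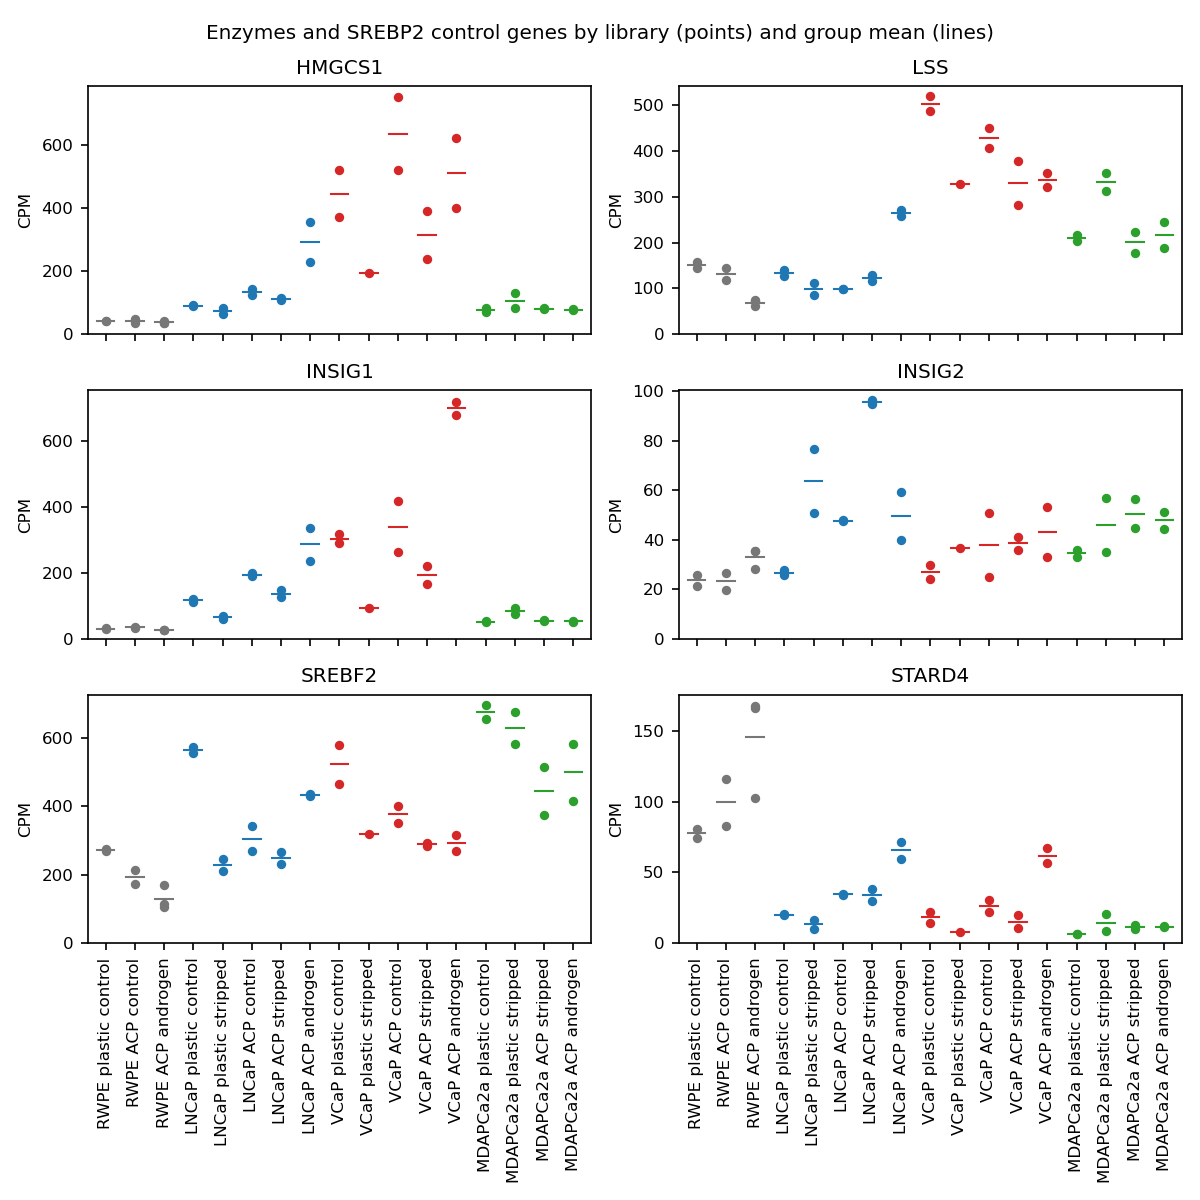
CPM (y axes) of HMGCS1, LSS, INSIG1, INSIG2, SREBF2 and STARD4 in each group (x axis), with points for libraries and short lines for group means. The LNCaP androgen libraries lie above the other LNCaP libraries in HMGCS1, LSS and INSIG1 and below those in stripped serum on ACP in INSIG2, and VCaP androgen libraries are highest in INSIG1.

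Other genes of lipid metabolism were read from lists beside the members. Of 15 tested among 16 further sterol genes (processing of SREBP2, lysosomal release, sterol carriers and remaining enzymes), 1 rose with androgen in LNCaP by edgeR. It was OSBP, a sterol carrier at membrane contacts (log2 0.61, adjusted p = 0.044), where 3.77% of all genes rose. In VCaP 0 passed, against 17.5% of all genes. There 4 had an unadjusted p under 0.05, a limit met by at least those 17.5% of all genes. In MDAPCa2a 0 passed, with 0 unadjusted, against 1.73% of all genes unadjusted. Of 13 fatty acid synthesis genes, 9 rose in LNCaP, against 3.77% of all genes, led by ELOVL5, a fatty acid elongase (log2 3.20). In VCaP 8 rose, against 8.67%, led by ACSL3, an acyl-CoA synthetase (log2 2.82). None fell in either line and none passed in MDAPCa2a. Of 8 genes tested among those induced by oxysterols through LXR, 2 fell in LNCaP, against 3.96% of all genes lower, led by the cholesterol exporter ABCA1 (log2 -1.99), which had risen by 2.37 with stripped serum on ACP, and 1 fell in VCaP (PLTP, -1.19), against 8.8%. Their median log2 changes were 0.17 and -0.47, and their summed level in LNCaP was 320 to 350 CPM in stripped serum and 303 to 308 with androgen.

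As a description, members were set against the mean log2 CPM of the other enzymes in each library, after each line's mean was subtracted (Pearson's r over 34 libraries, which share lines, media and depth). FDFT1 followed the others most closely, at 0.94 over all libraries and 0.96 over the 26 without plastic control. INSIG1 had 0.88 and 0.91, and STARD4 0.84 and 0.83. TM7SF2 had -0.14 and -0.17, SCAP -0.13 and 0.06, and INSIG2 0.21 and 0.02. SREBF2 had 0.03 over all libraries and 0.37 without plastic control. Within RWPE several enzymes ran against the mean, among them LSS (-0.80), MVD (-0.83) and DHCR7 (-0.89) over its 7 libraries, while in LNCaP the same genes had 0.78, 0.72 and 0.72 over 10 libraries.

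Counting can affect some members. FDPS has 8 named pseudogenes in GENCODE 29, CYP51A1 has 3 and HSD17B7 has 2, so their counts are uncertain where reads could be split. On the same strand, exons of TM7SF2 overlap those of VPS51, GGPS1 those of TBCE and CYP51A1 those of unnamed genes. On the opposite strand 12 members have an overlap, among them ACAT2 with SOD2 and TCP1, MVK with MMAB and NPC1 with RMC1, and the use of strand in counting is not given in the sources used here.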

How the data were processed

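RNA of 34 cell culture libraries was sequenced after polyA selection. The authors deposited 1 table of raw read counts per gene, with 26336 genes and every column mapped to a library by its name. Per the submitters' processing notes, STAR, HTSeq and hg19 were used, with versions, annotation and strand setting not given in the sources used here. Totals were 15.4 M to 44.8 M counts, which limits genes of low count, and intervals and limits for a count of 0 (3 counts) cover counting error only.

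Counts were tested with edgeR 4.0.16 in R 4.3.3: TMM scaling, a filter on low counts (filterByExpr, minimum count 10), the quasi-likelihood F test with 1 coefficient per group, and Benjamini-Hochberg adjustment over all genes tested, with a threshold of 0.05. Comparisons within a line were fitted on that line, and comparisons between lines and differences of androgen effects on all 34 libraries. SE is the log2 change divided by the square root of F. The test was checked on simulated counts. Members and lists were chosen with earlier results of these data known, and 2 genes of a list are not reported here. All members could be named, those called with the largest changes first, and of other lists the largest called rise and fall, plus KLK3 and TMPRSS2. Alternatives were DESeq2 1.42.0, RLE scaling, no count filter, a replicate block, other sets of libraries in the fit, and leaving out each library. Promoter windows are RefSeq's for GRCh38.p14, and no coordinates were converted.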

Additional observations from a re-analysis of the deposited data

Results flagged for a closer look

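The androgen effect on ACP differed between lines for 5 members, by a test of the difference itself in the edgeR fit of all 34 libraries. Between VCaP and LNCaP the difference in log2 change was 1.58 ± 0.32 (SE) for EBP, 1.11 ± 0.31 for FDPS and -1.07 ± 0.25 for LSS, with adjusted p = 0.00245, 0.0226 and 0.00679. These are 3 of 28 members, or 10.7%, against 10.9% of all genes. EBP and FDPS rose in VCaP and did not pass in LNCaP, and LSS rose in LNCaP and did not pass in VCaP. Between MDAPCa2a and LNCaP it was -1.13 ± 0.27 for INSIG1, -1.08 ± 0.23 for SOAT1 and -1.0 ± 0.25 for LSS, with adjusted p = 0.0375, 0.0166 and 0.0462. All 3 rose in LNCaP and did not pass in MDAPCa2a. Of all genes 0.768% passed in this direction, and without LNCaP stripped replicate 1 or MDAPCa2a androgen replicate 1, 0 members passed. The effects in both differences share the LNCaP libraries.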

How the results depend on the processing

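No call of a member reversed its direction: of 261 member calls, with 2407 alternative values, 0 reversed and 109 were lost under at least 1 alternative. EBP and LSS between the androgen effects of VCaP and LNCaP, LSS with androgen in LNCaP, and IDI1, EBP, INSIG1, STARD4 and NPC1 with androgen in VCaP held under each. The numbers of called members below are given after the number in the main test, and the cause of the changes was not tested. Shares of all genes called under the alternatives are not given, here or above. A larger or smaller number of members can therefore go with more or fewer calls over all genes.

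With DESeq2 the count went from 1 to 5 for stripped serum on ACP in VCaP, from 0 to 4 for ACP against plastic in stripped serum in MDAPCa2a, from 0 to 2 for ACP against plastic in RWPE, from 3 to 6 for stripped serum on plastic in MDAPCa2a, and from 3 to 6 for each difference of androgen effects. Without the count filter these were 5, 5, 2, 8, 5 and 5. In the fit of all lines, stripped serum on ACP gave 3 in LNCaP (from 5) and 8 in VCaP, ACP against plastic gave 4 in stripped serum in LNCaP (from 7) and 6 in control medium in LNCaP (from 12). Without plastic control libraries, RWPE androgen medium gave 2 (from 8), stripped serum on ACP in LNCaP 2, and the MDAPCa2a minus LNCaP difference 1. RLE scaling, added after seeing the data, gave summed enzyme CPM of 2007 for LNCaP and 1726 for MDAPCa2a on plastic in control medium, against 2109 and 1828.

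With the replicate block, 17 members passed for RWPE androgen medium, 6 for ACP against plastic in RWPE and 5 for the VCaP minus LNCaP difference. Same-numbered libraries deviated together in some pairs of groups only. A correlation over 0.1 was found in 1 of 6 pairs in RWPE, 6 of 20 in LNCaP, 4 of 12 in VCaP and 2 of 12 in MDAPCa2a. In groups of 2 libraries both deviations mirror each other, so each such value is counted double. Between stripped and androgen libraries on ACP the correlation was 0.42 in MDAPCa2a, 0.16 in LNCaP and -0.15 in VCaP. With such mixed values the numbers were not taken to pair libraries, and a pairing in single groups is not excluded.

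Leaving out 1 library leaves an arm with a single library, except for RWPE on ACP with androgen, where 2 remain. An arm with a single library is assumed to vary like the other groups. Called members then ranged from 3 to 13 for androgen in LNCaP, 5 to 9 in VCaP, 0 to 0 in MDAPCa2a and 0 to 19 in RWPE. For stripped serum on ACP they ranged from 0 to 4 in LNCaP and 0 to 0 in VCaP, and on plastic from 1 to 9 in LNCaP and 0 to 0 in MDAPCa2a. For ACP against plastic in stripped serum they ranged from 0 to 9 in LNCaP and 0 to 3 in MDAPCa2a, and in control medium 0 to 0 in RWPE, 0 to 12 in LNCaP and 0 to 0 in VCaP. Between lines on plastic the ranges were 13 to 14, 20 to 21, 12 to 13, 15 to 17 and 10 to 11, and on ACP with androgen 18 to 21, 20 to 23, 18 to 23, 10 to 13 and 16 to 19, in the order LNCaP, VCaP and MDAPCa2a against RWPE, then VCaP and MDAPCa2a against LNCaP. The differences of androgen effects ranged from 2 to 6 and 0 to 4. Depth limits NPC1L1, at 100 reads or fewer in every library.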
